A study of Mus musculus with 16 samples.

Results

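Cd36, Lpl, Vldlr, Fabp1, Fabp2, Fabp4, Slc27a2, Slc27a4 and Lipc encode proteins that bring fatty acids into cells, release them from lipoproteins or carry them inside the cell. These 9 genes were taken as a listed set by symbol, and each matched 1 of the 55471 gene identifiers in the count tables. All 9 were among the 17046 genes with enough fragments to be tested. They were measured by RNA sequencing in 16 mouse livers, with 4 livers per group. PAM I and PAM II name the antibiotic-exposed aged mice of 102 weeks, and they are set beside aged mice given no antibiotics (aged no ABX, 102 weeks) and young adults given none (12 weeks). The series title places the antibiotic exposure in early life. The labels give neither the drugs and doses, nor what PAM I and PAM II stand for, nor the strain, sex, litter or cage, and no genotype is given for any group. Each library came from its own labelled liver portion, and the p-values measure the spread between such samples.

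A liver cell can take up free fatty acids through CD36 at the plasma membrane and through transport proteins of the SLC27 family, which also activate the fatty acid to its coenzyme A ester. Lipoprotein lipase and hepatic lipase release fatty acids from circulating lipoproteins, and the VLDL receptor binds triglyceride-rich particles. Inside the cell, small fatty acid-binding proteins keep the water-insoluble chains in solution. Healthy mouse hepatocytes are known for very high Fabp1 and low Cd36, Lpl and Vldlr, and Fabp4 is known mainly from adipocytes and macrophages. Several of these genes are textbook targets of the nuclear receptors PPAR-alpha and PPAR-gamma, which bind, with RXR, pairs of AGGTCA-like hexamers 1 base apart.

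The upstream sequences of 3 of the genes are shown because they stand for different patterns below: Fabp1 is the most abundant of the set and had no call with age, whereas Cd36 and Vldlr were higher in all 12 aged livers. Each sequence runs 5′ to 3′ on the gene's strand, from 250 bases before a RefSeq transcript start through the first 50 bases of the transcript (GRCm38.p6). Capitals mark matches on either strand to AGGNCANAGGNCA (the paired hexamer, with 1 free base in each), AGGTCA (the single hexamer) and TATAAA (the TATA box). The Cd36 window lies inside the gene's annotated span, at a start other than the most upstream one. The RefSeq start used for Fabp1 also lies inside the gene's GENCODE span, which begins at 71199827. The TATAAA of the Fabp1 window falls within that span. Positions given below count from the RefSeq starts. The windows are chr6:71199629-71199928 on the plus strand for Fabp1, chr5:17835847-17836146 on the minus strand for Cd36 and chr19:27216234-27216533 on the plus strand for Vldlr.
Fabp1: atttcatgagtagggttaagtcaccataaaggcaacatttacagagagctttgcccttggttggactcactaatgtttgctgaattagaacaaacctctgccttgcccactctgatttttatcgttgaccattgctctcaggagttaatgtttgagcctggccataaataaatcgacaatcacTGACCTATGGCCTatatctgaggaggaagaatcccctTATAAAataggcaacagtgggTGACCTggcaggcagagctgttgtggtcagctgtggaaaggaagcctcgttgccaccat
Cd36: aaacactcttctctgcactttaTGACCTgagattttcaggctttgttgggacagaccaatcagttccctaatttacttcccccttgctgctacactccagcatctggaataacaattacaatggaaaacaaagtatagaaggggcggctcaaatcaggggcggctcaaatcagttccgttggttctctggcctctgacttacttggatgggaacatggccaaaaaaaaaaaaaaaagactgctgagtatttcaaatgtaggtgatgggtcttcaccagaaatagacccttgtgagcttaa
Vldlr: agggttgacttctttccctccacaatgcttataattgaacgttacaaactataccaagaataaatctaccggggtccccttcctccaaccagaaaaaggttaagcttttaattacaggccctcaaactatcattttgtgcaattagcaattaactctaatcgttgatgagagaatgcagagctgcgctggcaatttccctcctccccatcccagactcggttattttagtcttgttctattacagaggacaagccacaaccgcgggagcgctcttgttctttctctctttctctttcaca

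The Fabp1 window held the paired hexamer on its minus strand, read as TGACCTATGGCCT, from 67 to 55 bases before the transcript start. The first 6 bases of that match are also a match to the single hexamer, and a second single hexamer lay 9 to 4 bases before the start. Fabp1 also had TATAAA 30 to 25 bases before the start. Cd36 had a single hexamer, 228 to 223 bases before the start, and the Vldlr window held none of the 3 motifs. Of 32851 RefSeq windows of the same length, 0.381% held the paired hexamer, 16.3% the single hexamer and 13.6% TATAAA. Windows were matched for 7 of the 9 genes. Of those not printed, Slc27a2 had 1 single hexamer, 1 of 2 Lipc windows had 2, and Fabp2, Slc27a4 and the second Vldlr window had no match. A match describes the letters only.

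Libraries held between 36968993 and 52090914 fragments assigned to genes, which were scaled with TMM factors to CPM, counts per 1000000 fragments. Genes were tested in 1 edgeR quasi-likelihood fit over all 16 libraries, and a gene is said to have risen or fallen where its Benjamini-Hochberg adjusted p over the 17046 genes was under 0.05. All 10 hepatocyte markers were detected in every library, with a summed level of 66721 to 122810 CPM in PAM I, 94694 to 118010 CPM in PAM II, 82884 to 120300 CPM in aged no ABX and 108880 to 118190 CPM in young livers. Alb, serum albumin, made up 70.6% of that sum. The mean log2(CPM + 0.5) of the list, which weights its genes equally, was lower in all 12 aged livers than in all 4 young ones, with 11.07 to 11.31 in PAM I livers, 10.90 to 11.49 in PAM II, 10.96 to 11.43 in aged no ABX and 11.56 to 11.87 in young livers. Its median log2 fold change against young livers was -0.39 in PAM I, -0.29 in PAM II and -0.38 in aged no ABX, and 1 of 10, Serpina1c, fell in each. The part of this shift in the levels of the 9 genes was not tested. Skeletal muscle transcripts (16 genes) varied between libraries, with a sum of 2.05 to 50.3 CPM in PAM I, 1.80 to 129.6 CPM in PAM II, 0.811 to 14.975 CPM in aged no ABX and 1.10 to 133.5 CPM in young livers. Adipoq, Lep and Plin1, which define adipocytes, had at most 0.0622 CPM in any library. The whole adipocyte list of 9 genes summed to 3804 to 4663 CPM in PAM I and 2362 to 6021 CPM in PAM II. It summed to 2989 to 5387 CPM in aged no ABX and 4618 to 6171 CPM in young livers. Car3 made up 71.2% of that sum, and Pck1 is also in the hepatocyte list. In bulk tissue, fewer cells of a type and less RNA per cell cannot be told apart.

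Cd36 and Vldlr were higher in every aged group than in young livers, and Fabp4 and Fabp2 rose in some of them. Of the 9 genes, 4 rose in PAM I (Cd36, Vldlr, Fabp2 and Fabp4), 3 in PAM II (Cd36, Vldlr and Fabp4) and 2 in aged no ABX livers (Cd36 and Vldlr), each against young livers, and 0 fell. Over all genes tested, 8.22% were called in PAM I against young livers (4.83% higher and 3.38% lower), 5.19% in PAM II (3.17% higher and 2.01% lower) and 3.23% in aged no ABX (1.92% higher and 1.31% lower). The 3 comparisons share the young libraries and are not independent of each other. The median log2 fold change of the 9 genes was 0.93 in PAM I, 0.62 in PAM II and 0.45 in aged no ABX livers, beside -0.02, -0.02 and -0.01 over all genes tested.

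**Figure D1:**
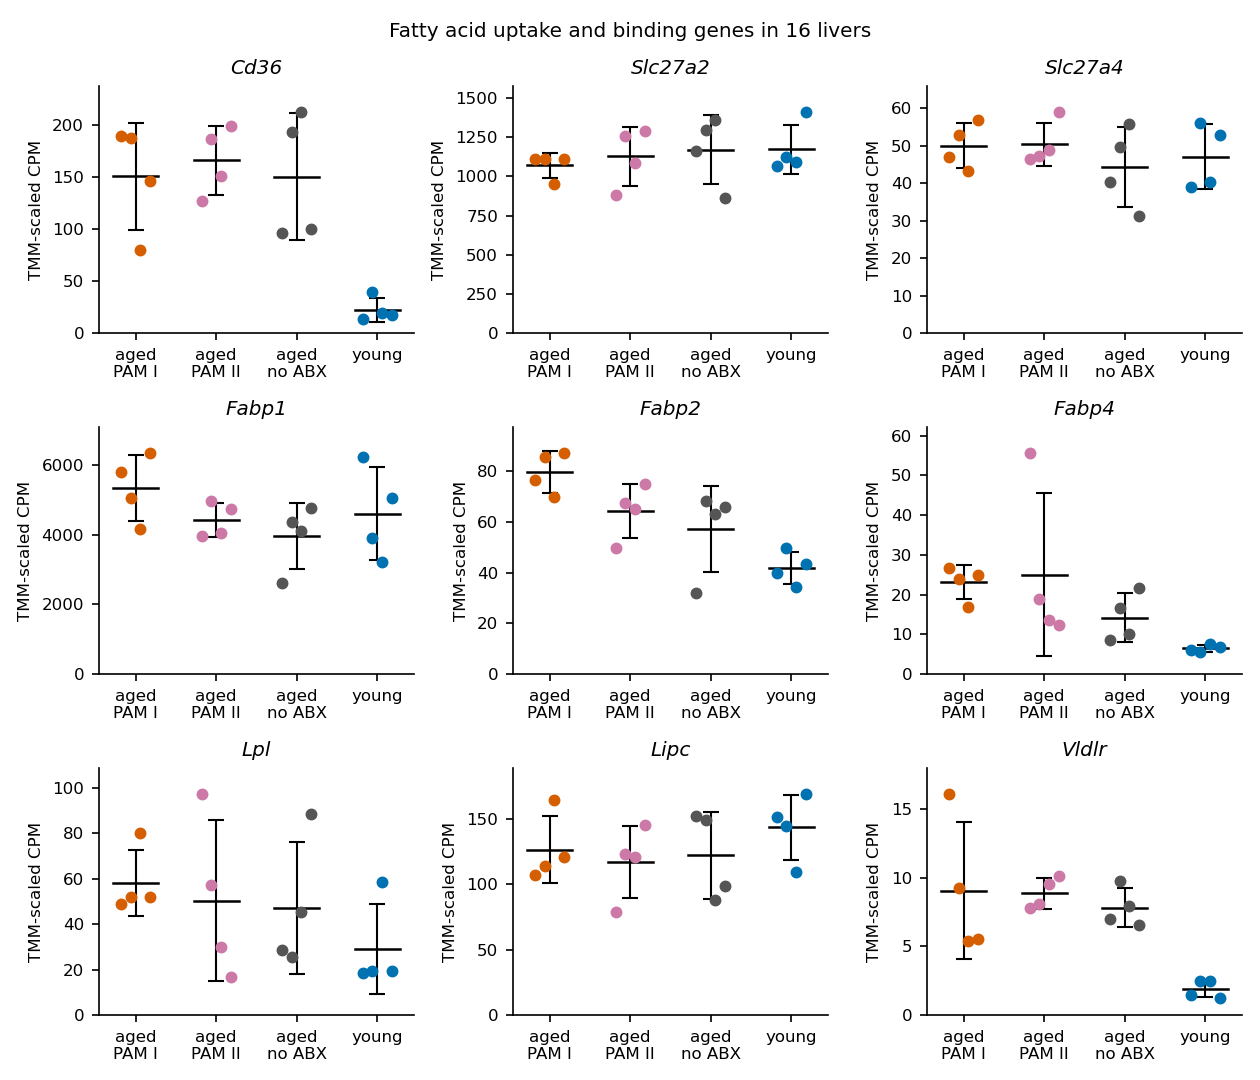
TMM-scaled CPM (linear axes from 0) of the 9 genes in each of 16 livers, with the mean and SD of 4 livers per group. Cd36, Vldlr and Fabp4 had no overlap between the 12 aged and the 4 young livers, whereas Slc27a2, Slc27a4, Lpl, Lipc and Fabp1 overlapped in every comparison.

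Cd36 encodes a scavenger receptor of the plasma membrane that facilitates uptake of long-chain fatty acids. Its levels were 189.7, 187, 79.4 and 147 CPM in PAM I, 127, 187, 151 and 199.6 CPM in PAM II, 96.3, 193, 212 and 100.1 CPM in aged no ABX, and 13.2, 39.4, 19.5 and 17.8 CPM in young livers. The lowest aged liver was 2.02 times the highest young one, and the aged livers spread over a 2.67-fold range. Cd36 rose 6.70-fold in PAM I (log2 fold change 2.74 ± 0.37 SE, adjusted p = 0.000724), with a 95% interval of 3.86 to 11.6. In PAM II it rose 7.39-fold (2.89 ± 0.38, adjusted p = 0.000557), with an interval of 4.25 to 12.9. The rise in aged no ABX livers was 6.69-fold (2.74 ± 0.37, adjusted p = 0.00103), with an interval of 3.86 to 11.6. By p-value Cd36 ranked 45, 33 and 32 of the 17046 genes in these comparisons. Its level relative to the other genes also differed: by fragments per exon length it stood between ranks 872 and 1777 in PAM I, 853 and 1186 in PAM II, 737 and 1472 in aged no ABX, and 3105 and 6494 in young livers, of 55471 identifiers.

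Slc27a2 encodes fatty acid transport protein 2 of hepatocytes, which also acts as a very long-chain acyl-CoA synthetase. Its levels were 1111, 1110.3, 953 and 1112 CPM in PAM I, 884, 1259.8, 1083 and 1293 CPM in PAM II, 1161, 1298, 1359 and 865 CPM in aged no ABX, and 1068, 1124, 1092 and 1409 CPM in young livers. The groups overlapped in each comparison, and 3 of 12 aged livers lay below all young ones. The log2 fold changes were -0.13 ± 0.16 in PAM I, -0.05 ± 0.16 in PAM II and 0.00 ± 0.16 in aged no ABX livers, with adjusted p of 0.637, 0.878 and 0.995. The 95% intervals ran from a fold of 0.724 to 1.15 in PAM I livers, 0.764 to 1.22 in PAM II and 0.791 to 1.26 in aged no ABX livers. An antisense gene, Gm26697, overlaps 419 exonic bases of Slc27a2 on the opposite strand; it was not among the counted identifiers.

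Slc27a4 encodes fatty acid transport protein 4, known best from enterocytes and skin. It had 46.9, 52.7, 43.3 and 56.7 CPM in PAM I, 46.4, 47.2, 48.9 and 58.8 CPM in PAM II, 40.1, 49.5, 55.8 and 31.3 CPM in aged no ABX, and 39.0, 56.0, 40.3 and 52.7 CPM in young livers. These ranges overlapped, and no comparison with young livers passed (log2 fold changes 0.09, 0.10 and -0.09 in PAM I, PAM II and aged no ABX, each ± 0.17, adjusted p from 0.783 to 0.824). Per kilobase of exon, Cd36 stood above Slc27a4 in all aged livers and below it in all young ones: the ratio of Cd36 to Slc27a4 was 2.25 to 4.97 in PAM I livers, 3.37 to 4.88 in PAM II, 2.95 to 4.79 in aged no ABX and 0.415 to 0.864 in young livers. Against Slc27a2, the per-kilobase level of Cd36 was 8.71% to 17.9% in PAM I livers, 14.6% to 16.1% in PAM II, 8.67% to 16.3% in aged no ABX and 1.30% to 3.67% in young livers.

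Fabp1 encodes the liver fatty acid-binding protein, the main carrier of fatty acids in hepatocyte cytoplasm. It was the most abundant of the 9 genes per exon length and stood at ranks 5 to 8 in PAM I livers, 7 to 8 in PAM II, 8 to 10 in aged no ABX and 8 to 12 in young livers among all identifiers. Its levels were 5784, 5047, 4164 and 6325 CPM in PAM I, 3965, 4950.3, 4033 and 4718.5 CPM in PAM II, 2623, 4355, 4092 and 4772 CPM in aged no ABX, and 6237, 3891.5, 3207 and 5048 CPM in young livers. The young livers alone spanned a 1.95-fold range, and the aged groups lay mostly within it. The log2 fold changes were 0.21, -0.06 and -0.21 in PAM I, PAM II and aged no ABX (each ± 0.22), with adjusted p of 0.567, 0.910 and 0.642. Their intervals allowed folds of 0.842 to 1.597 in PAM I livers, 0.698 to 1.32 in PAM II and 0.626 to 1.19 in aged no ABX livers.

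Fabp2 encodes the intestinal fatty acid-binding protein, best known from enterocytes. It had 76.3, 85.7, 69.7 and 86.9 CPM in PAM I, 49.7, 67.6, 64.9 and 74.9 CPM in PAM II, 31.7, 68.0, 62.9 and 65.9 CPM in aged no ABX, and 39.8, 49.8, 34.3 and 43.2 CPM in young livers. The 4 PAM I livers lay above all young ones, whereas 1 PAM II and 1 aged no ABX liver fell within or below the young range. Fabp2 rose 1.91-fold in PAM I (log2 fold change 0.93 ± 0.20, adjusted p = 0.0137), with a 95% interval of 1.42 to 2.57. With the aged livers high in muscle transcripts left out (replicates 1 and 2 of PAM I, replicates 2 to 4 of PAM II), its log2 fold change was 0.89 (adjusted p = 0.0732, range over all alternatives 0.000627 to 0.0732). In PAM II the log2 fold change was 0.62 ± 0.20 (adjusted p = 0.0846) and in aged no ABX 0.45 ± 0.20 (adjusted p = 0.240). Aged no ABX replicate 1 stood apart with 31.7 CPM, and without it the value in that group was 0.65 (adjusted p = 0.0379, range over all alternatives 0.0379 to 0.609). DESeq2 called the PAM II value as well (adjusted p = 0.0412, range over all alternatives 0.0412 to 0.756). Enterocyte markers were near absent: 4 to 5 of 8 were at 0 in every library and the sum of the list was 1.68 to 4.28 CPM in PAM I, 2.20 to 8.30 CPM in PAM II, 1.65 to 3.07 CPM in aged no ABX and 0.996 to 1.72 CPM in young livers, with Slc5a1, a glucose transporter, making up 83.5% of it over all libraries. Of the 2 enterocyte markers tested, 1 rose in PAM II and 0 were called in PAM I and in aged no ABX, each against young livers.

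Fabp4 encodes the adipocyte fatty acid-binding protein, also found in macrophages and endothelium. Its levels were 26.7, 23.9, 16.9 and 24.98 CPM in PAM I, 55.5, 18.8, 13.6 and 12.2 CPM in PAM II, 8.45, 16.6, 9.99 and 21.6 CPM in aged no ABX, and 5.95, 5.67, 7.55 and 6.73 CPM in young livers. All aged livers lay above all young ones, by a factor of 1.119 at the closest. Fabp4 rose 3.57-fold in PAM I (log2 fold change 1.84 ± 0.42, adjusted p = 0.0175), with a 95% interval of 1.92 to 6.63. In PAM II it rose 3.87-fold (1.95 ± 0.42, adjusted p = 0.0157), with an interval of 2.08 to 7.202. PAM II replicate 1 carried much of that value: without it the log2 fold change was 1.201 (adjusted p = 0.0294), and without young replicate 1 it was 1.90 (adjusted p = 0.0515, range over all alternatives 9.19e-05 to 0.0515). That replicate is the 1 PAM II liver left where the livers high in muscle transcripts are removed, and Fabp4 then had a log2 fold change of 3.10, with the lone liver assumed to vary like the other groups. In aged no ABX livers the log2 fold change was 1.13 ± 0.42 (adjusted p = 0.153). The exons of the 2 annotated Fabp4 transcripts merge into 1 block of 4489 bases, the whole span of the gene, so its level per kilobase is understated.

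Lpl encodes lipoprotein lipase, which splits triglycerides of circulating lipoproteins and is made mostly by adipose tissue, muscle and macrophages. It had 48.7, 51.9, 80.1 and 52.0 CPM in PAM I, 97.1, 57.4, 30.2 and 16.8 CPM in PAM II, 28.6, 25.7, 45.5 and 88.7 CPM in aged no ABX, and 18.5, 19.5, 58.8 and 19.3 CPM in young livers. Lpl spread most widely of the 9 genes in PAM II, over a 5.78-fold range, and all 4 young livers lay within the aged range. The gene did not pass in any comparison with young livers, with log2 fold changes of 1.003 ± 0.52 in PAM I (adjusted p = 0.233), 0.80 ± 0.52 in PAM II (adjusted p = 0.384) and 0.70 ± 0.52 in aged no ABX (adjusted p = 0.5). Without young replicate 3 these were 1.61, 1.40 and 1.30, with adjusted p of 0.0799, 0.126 and 0.172. Leaving out 1 aged liver moved them the other way, to 0.80 without PAM I replicate 3, 0.27 without PAM II replicate 1 and 0.20 without aged no ABX replicate 4. Over all alternatives the adjusted p ranged from 0.0799 to 0.411 in PAM I, from 0.126 to 0.836 in PAM II and from 0.172 to 0.989 in aged no ABX.

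Lipc encodes hepatic lipase, which acts on remnants and high-density lipoproteins in the liver sinusoid. Its levels were 107, 114, 164 and 121 CPM in PAM I, 78.8, 123, 121 and 145 CPM in PAM II, 152, 149, 88.0 and 98.7 CPM in aged no ABX, and 151, 144, 109 and 168 CPM in young livers. The ranges overlapped, with 4 of 12 aged livers below all young ones. The log2 fold changes were -0.18, -0.30 and -0.23 in PAM I, PAM II and aged no ABX (each ± 0.22), with adjusted p of 0.633, 0.445 and 0.609. The 95% intervals ran from a fold of 0.641 to 1.21 in PAM I livers, 0.592 to 1.121 in PAM II and 0.619 to 1.17 in aged no ABX.

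Vldlr encodes the very low density lipoprotein receptor, which binds apolipoprotein E-rich particles and brings them to lipoprotein lipase. By its mean it was the scarcest of the 9 genes in every group, with 16.1, 9.26, 5.41 and 5.57 CPM in PAM I, 7.80, 8.08, 9.57 and 10.1 CPM in PAM II, 7.02, 9.74, 7.98 and 6.59 CPM in aged no ABX, and 1.496, 2.50, 2.45 and 1.26 CPM in young livers. Between 47 and 101 fragments lay behind each young value. The lowest aged liver was 2.17 times the highest young one. Vldlr rose 4.695-fold in PAM I (log2 fold change 2.23 ± 0.33, adjusted p = 0.00125), with a 95% interval of 2.91 to 7.58. In PAM II it rose 4.598-fold (2.20 ± 0.33, adjusted p = 0.00151), with an interval of 2.85 to 7.42. The rise in aged no ABX livers was 4.05-fold (2.02 ± 0.32, adjusted p = 0.00332), with an interval of 2.51 to 6.52. With the aged livers high in muscle transcripts left out, the log2 fold change in PAM I was 1.496 (adjusted p = 0.022, range over all alternatives 1.93e-09 to 0.022).

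The 3 genes whose 12 aged livers all lay above the 4 young ones were Cd36, Vldlr and Fabp4, and 2.69% of all genes tested met the same condition. Against young livers the libraries of both groups did not overlap for 4 of the 9 genes in PAM I (16.9% of all genes), 3 in PAM II (14.3%) and 3 in aged no ABX (9.27%). In young livers the order of levels per kilobase of exon was Fabp1 (8311 CPM per kb), Slc27a2 (313), Lipc (66.7), Fabp2 (43.3), Slc27a4 (10.7), Cd36 (6.26), Lpl (2.77), Fabp4 (1.44) and Vldlr (0.191). The lengths merge the exons of all annotated transcripts of a gene, with 10478 bases for Lpl and 10068 bases for Vldlr. Where liver makes mainly a shorter transcript, the level per kilobase is understated and the order could differ. In aged no ABX livers Cd36 averaged 41.9 CPM per kb, below Lipc with 56.8 and Fabp2 with 59.2, and the ranges of these 3 overlapped. Within each of these livers Cd36 stood below Fabp2, at 40.8% to 90.7% of its level. The order of Cd36 and Lipc differed between livers. Fabp1 and Slc27a2 were the highest and Vldlr the lowest in the aged groups as well, with Vldlr at 0.902 CPM per kb in PAM I, 0.884 in PAM II and 0.778 in aged no ABX livers.

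**Figure D2:**
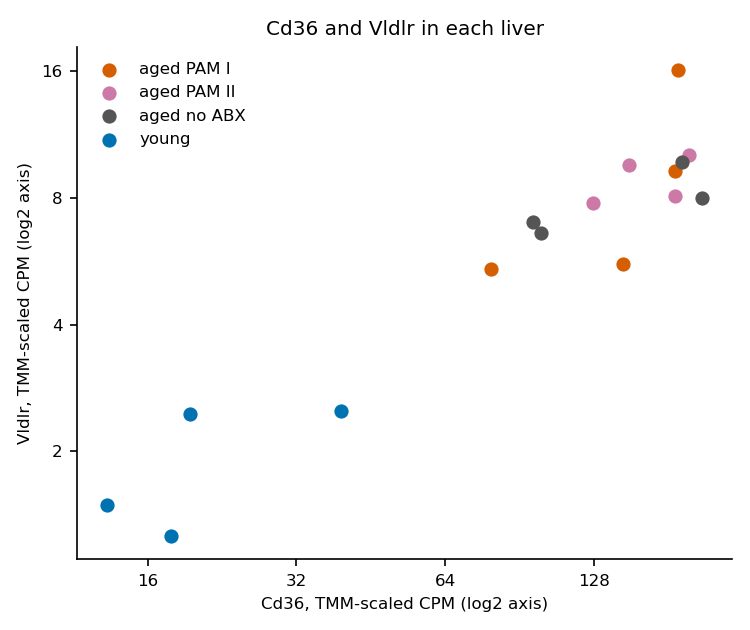
Cd36 against Vldlr in each of 16 livers, as TMM-scaled CPM on log2 axes, colored by group. The 4 young livers lie at or below 39.4 CPM of Cd36 and 2.50 CPM of Vldlr, and the 12 aged livers form a separate set above them.

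None of the 9 genes passed between the aged groups. In PAM I against aged no ABX livers 0 of 9 were called, in PAM II against aged no ABX 0 of 9, and in PAM II against PAM I 0 of 9, where edgeR called 0% of the 17046 genes in each comparison and in each direction. At an unadjusted p under 0.05 there were 1602, 465 and 778 genes in these comparisons, and DESeq2 called 16, 0 and 0, with 0 of the 9 among them. The members' median log2 fold changes were 0.21, 0.16 and -0.03, beside 0.02, 0.01 and 0.01 over all genes. Fabp2 was the 1 gene whose libraries did not overlap, with 69.7 to 86.9 CPM in PAM I and 31.7 to 68.0 CPM in aged no ABX livers (log2 fold change 0.48 ± 0.20, unadjusted p = 0.0301, adjusted p = 0.512). Such separation was met by 5.47% of all genes in that comparison, by 2.1% in PAM II against aged no ABX and by 4.66% in PAM II against PAM I.

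The intervals show what these 4 livers a group could not resolve. For Cd36 the 95% interval of the fold ran from 0.5995 to 1.675 in PAM I against aged no ABX, from 0.661 to 1.85 in PAM II against aged no ABX and from 0.66 to 1.84 in PAM II against PAM I. Vldlr had intervals of 0.741 to 1.815, 0.725 to 1.78 and 0.626 to 1.53 in the same comparisons. Fabp4 had the highest upper bounds, with folds of 1.63 (0.899 to 2.96) in PAM I and 1.77 (0.9745 to 3.22) in PAM II against aged no ABX. Fabp1 had a fold of 1.35 (0.977 to 1.85) in PAM I against aged no ABX, with an adjusted p of 0.553. Slc27a2 was the most tightly bounded, between 0.725 and 1.16 in PAM I and between 0.765 and 1.22 in PAM II against aged no ABX. These intervals do not show that the groups are alike.

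**Figure D3:**
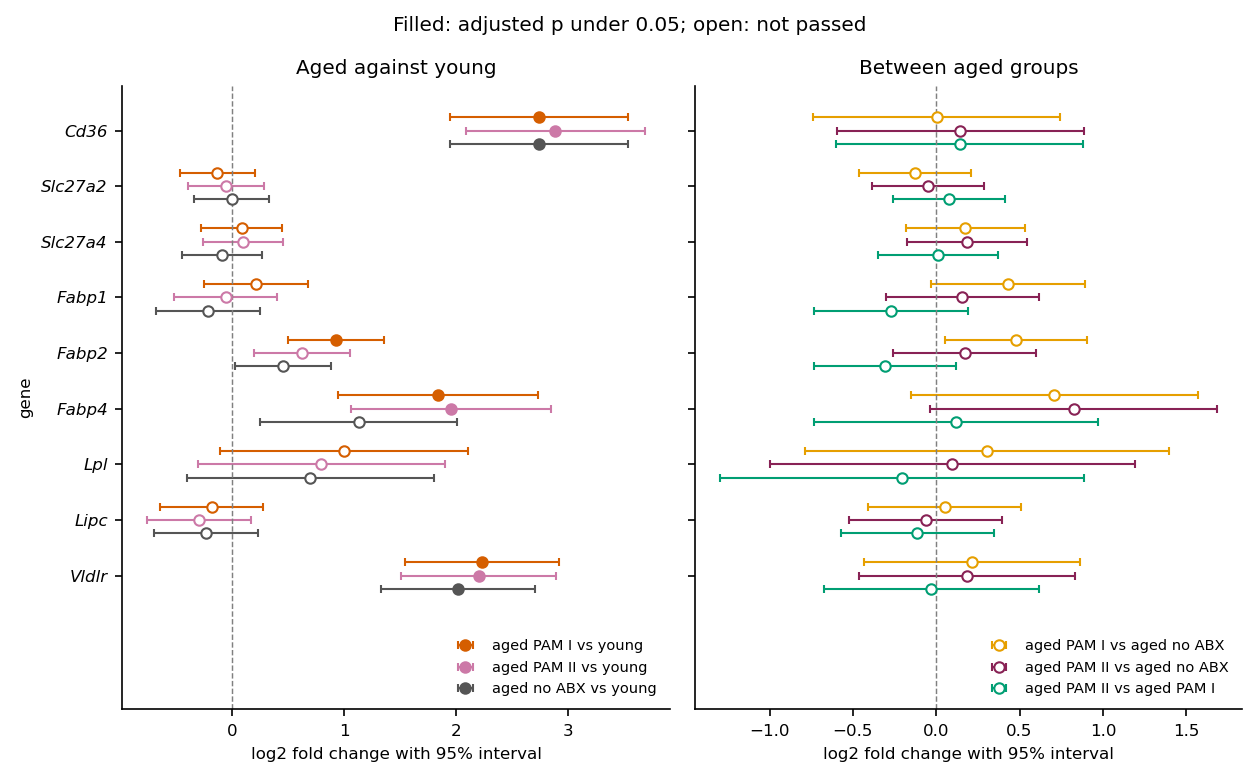
Log2 fold changes of the 9 genes with 95% intervals, aged groups against young livers (left) and between aged groups (right), with filled points where the adjusted p was under 0.05. The intervals of Cd36 and Vldlr lie wholly above 0 in all 3 comparisons with young livers, and no point on the right is filled.

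Between 5 and 7 of 10 lipid-associated macrophage markers rose in each aged group, few or no markers of other cell types passed, and their part in the levels of the 9 genes was not tested. The summed level of 10 lipid-associated macrophage markers was 118 to 232 CPM in PAM I, 77.4 to 323 CPM in PAM II, 98.9 to 239 CPM in aged no ABX and 48.9 to 67.1 CPM in young livers, with none at 0. Of the 10, 7 rose in PAM I, 5 in PAM II and 5 in aged no ABX. Spp1 made up 44.2% of the sum. The 11 Kupffer cell markers summed to 335 to 1480 CPM in PAM I, 426 to 1794 CPM in PAM II, 241 to 846 CPM in aged no ABX and 263 to 372 CPM in young livers, with 1, 2 and 0 higher in the 3 comparisons with young livers. Their median log2 fold changes were 1.46, 1.49 and 0.95, beside 2.23, 2.03 and 2.12 for the lipid-associated macrophage list. The skeletal muscle list had medians of -0.86, 0.15 and -3.53 in the same order, with 0 of 15 tested genes called in each. Endothelial markers (11 genes) summed to 246 to 386 CPM in PAM I, 277 to 484 CPM in PAM II, 223 to 395 CPM in aged no ABX and 367 to 413 CPM in young livers, with 0 of 11 called in PAM I and in PAM II and 1 lower in aged no ABX. Of the adipocyte list, Car3, which hepatocytes also express, made up 71.2%, and of its 5 tested genes 0 rose and 1 fell in each aged group. Of the 2 exocrine pancreas markers tested, 1 fell in PAM I and 0 were called in PAM II and in aged no ABX.

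Within the 12 aged livers, the levels of the genes were set against these lists and each other. The aged groups were pooled and permuted together, so differences between their means also enter r. Fabp1 and Fabp2 both averaged highest in PAM I, with 5330 and 79.6 CPM against 3960 and 57.1 CPM in aged no ABX. The part of such group differences in r was not tested. Over 108 relations (9 genes with 8 marker lists and 36 pairs of genes), 2 had an adjusted permutation p under 0.05 for Pearson's r on log2 CPM. Fabp1 and Fabp2 varied together (r = 0.91, adjusted permutation p = 0.013, Spearman 0.87, adjusted permutation p = 0.0308, n = 12), and r was 0.78 without the 2 livers farthest from the median of Fabp2. Slc27a2 followed the hepatocyte list (r = 0.87, adjusted permutation p = 0.0265, Spearman 0.80, adjusted permutation p = 0.0941), with 0.69 without 2 livers. Cd36 was lower where the Kupffer list was higher, with r = -0.77 (permutation p = 0.00348, adjusted permutation p = 0.0716) and Spearman -0.87 (adjusted permutation p = 0.0308), and r was -0.82 without 2 livers. Vldlr had -0.62 with the same list (adjusted permutation p = 0.131, Spearman -0.71, adjusted permutation p = 0.106, -0.86 without 2 livers). Lpl had 0.77 with the lipid-associated macrophage list (adjusted permutation p = 0.0716, Spearman 0.78, adjusted permutation p = 0.0941, 0.55 without 2 livers). Lpl also had -0.79 with the hepatocyte list (adjusted permutation p = 0.0716, Spearman -0.73, adjusted permutation p = 0.0941, -0.62 without 2 livers) and, of like size, 0.74 with the exocrine pancreas list, of which Cela1 made up 98.2% (adjusted permutation p = 0.0716, Spearman 0.73, adjusted permutation p = 0.0941, 0.80 without 2 livers). Fabp4 had -0.75 with the hepatocyte list (adjusted permutation p = 0.0716, Spearman -0.73, adjusted permutation p = 0.0941, -0.61 without 2 livers) and 0.68 with the lipid-associated macrophage list (adjusted permutation p = 0.111, Spearman 0.65, adjusted permutation p = 0.148, 0.51 without 2 livers). Vldlr had 0.72 with the skeletal muscle list (adjusted permutation p = 0.0716, Spearman 0.68, adjusted permutation p = 0.128, 0.78 without 2 livers). With the exocrine pancreas list Vldlr had -0.66 (adjusted permutation p = 0.111, Spearman -0.755, adjusted permutation p = 0.0941, -0.39 without 2 livers). Lipc had -0.72 with the near absent enterocyte list (adjusted permutation p = 0.0716, Spearman -0.66, adjusted permutation p = 0.148, -0.57 without 2 livers). Cd36 and Vldlr had 0.66 with each other among aged livers (adjusted permutation p = 0.111, Spearman 0.76, adjusted permutation p = 0.0941, 0.60 without 2 livers). By Pearson's r Cd36 had more with Slc27a2, 0.73 (adjusted permutation p = 0.0757, Spearman 0.72, 0.725 without 2 livers). With Slc27a4 it had 0.71 (adjusted permutation p = 0.0757, Spearman 0.75, 0.69 without 2 livers). Slc27a2 had -0.72 with the Kupffer list (adjusted permutation p = 0.0769, Spearman -0.65, -0.51 without 2 livers). Lpl and Slc27a2 had -0.74 (adjusted permutation p = 0.0716, Spearman -0.71, -0.54 without 2 livers). The livers share library, depth and scaling for both measures, and of these relations only Fabp1 with Fabp2, Slc27a2 with the hepatocyte list by Pearson's r and Cd36 with the Kupffer list by rank passed.

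**Figure D4:**
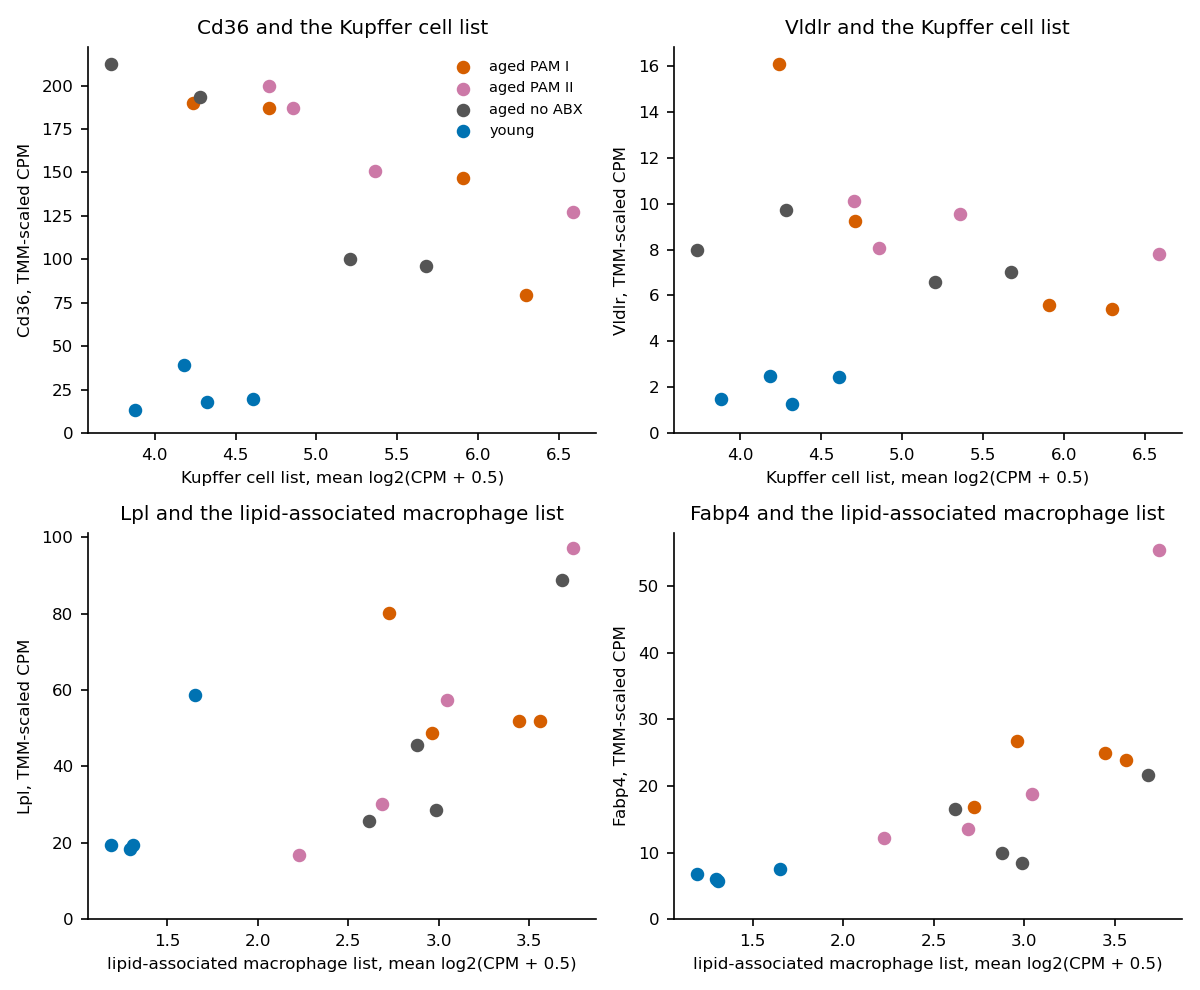
Cd36 and Vldlr against the Kupffer cell list, and Lpl and Fabp4 against the lipid-associated macrophage list, in each of 16 livers; horizontal axes give the mean log2(CPM + 0.5) of the list and vertical axes TMM-scaled CPM from 0. Young livers lie low in Cd36 and Vldlr at Kupffer levels that aged livers share, and low in the macrophage list with little Fabp4.

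The other genes of the pathway mostly did not pass. Of 81 listed genes of fatty acid binding, transport, activation, lipoprotein lipase control, lipases, remnant receptors and their transcriptional regulators, 76 were tested. In PAM I against young livers 3 rose and 3 fell, in PAM II 2 rose and 2 fell, and in aged no ABX 1 rose and 2 fell, with median log2 fold changes of -0.02, 0.01 and -0.07. These calls are 7.89%, 5.26% and 3.95% of the 76, near the 8.22%, 5.19% and 3.23% of all genes tested. Pparg, the nuclear receptor PPAR-gamma, rose in each aged group, averaging 25.2 ± 4.15 CPM in PAM I, 23.0 ± 2.76 CPM in PAM II, 19.3 ± 4.28 CPM in aged no ABX and 11.4 ± 2.77 CPM in young livers (SD, n = 4 each). Its log2 fold changes were 1.14, 1.01 and 0.76, with edgeR adjusted p of 0.00359, 0.00651 and 0.0398. Ppara, which encodes PPAR-alpha, did not pass (-0.48, 0.27 and -0.03, with adjusted p of 0.385, 0.690 and 0.973).

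Sort1, the sorting receptor sortilin, which binds lipoprotein lipase, fell in each aged group, averaging 15.2 ± 4.66 CPM in PAM I, 14.993 ± 4.01 CPM in PAM II, 16.3 ± 7.17 CPM in aged no ABX and 38.0 ± 8.04 CPM in young livers (SD, n = 4 each). Its log2 fold changes were -1.32, -1.34 and -1.22, with edgeR adjusted p of 0.0131, 0.0142 and 0.0303. Ces3a, a carboxylesterase that hydrolyzes triglycerides in mouse liver, also fell in each (-0.96, -1.14 and -0.92, with adjusted p of 0.0077, 0.00299 and 0.0145). Ces3a has close paralogs, so its own value is uncertain. Apoa4, an apolipoprotein that can activate lipoprotein lipase, rose in PAM I (2.69 ± 0.69, adjusted p = 0.0284) and had 2.20 (adjusted p = 0.0692) in PAM II and 2.13 (adjusted p = 0.0982) in aged no ABX. Lipg, endothelial lipase, rose in PAM II (1.07 ± 0.28, adjusted p = 0.0393), and Dbi, the acyl-CoA-binding protein, rose in PAM I (0.47 ± 0.12, adjusted p = 0.0279). Foxo1, a forkhead factor under insulin control, fell in PAM I (-0.48 ± 0.14, adjusted p = 0.0489). The comparisons between aged groups called 0 of the 76. They also called 0% of the 17046 genes tested, so they cannot decide whether these single-group calls differ between aged groups.

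Among close relatives of the 9 genes, Fabp5, the epidermal fatty acid-binding protein of macrophages and skin, averaged 53.9 ± 27.1 CPM in PAM I, 48.0 ± 30.9 CPM in PAM II, 34.5 ± 30.9 CPM in aged no ABX and 57.3 ± 8.70 CPM in young livers, and did not pass (log2 fold changes -0.09, -0.25 and -0.73, edgeR adjusted p of 0.934, 0.814 and 0.466). Slc27a5, the bile acyl-CoA synthetase of hepatocytes, averaged 825 ± 67.7 CPM in PAM I, 908 ± 117 CPM in PAM II, 808 ± 189 CPM in aged no ABX and 945 ± 158 CPM in young livers, and did not pass (-0.20, -0.06 and -0.23, adjusted p of 0.493, 0.879 and 0.510). Scarb1, the scavenger receptor that takes up cholesterol esters and belongs to the same family as CD36, had -0.47, -0.38 and -0.42 and did not pass (edgeR adjusted p of 0.0534, 0.125 and 0.121). Fabp6 had no fragment in any library and Fabp3 at most 8, and neither was tested.

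**Figure D5:**
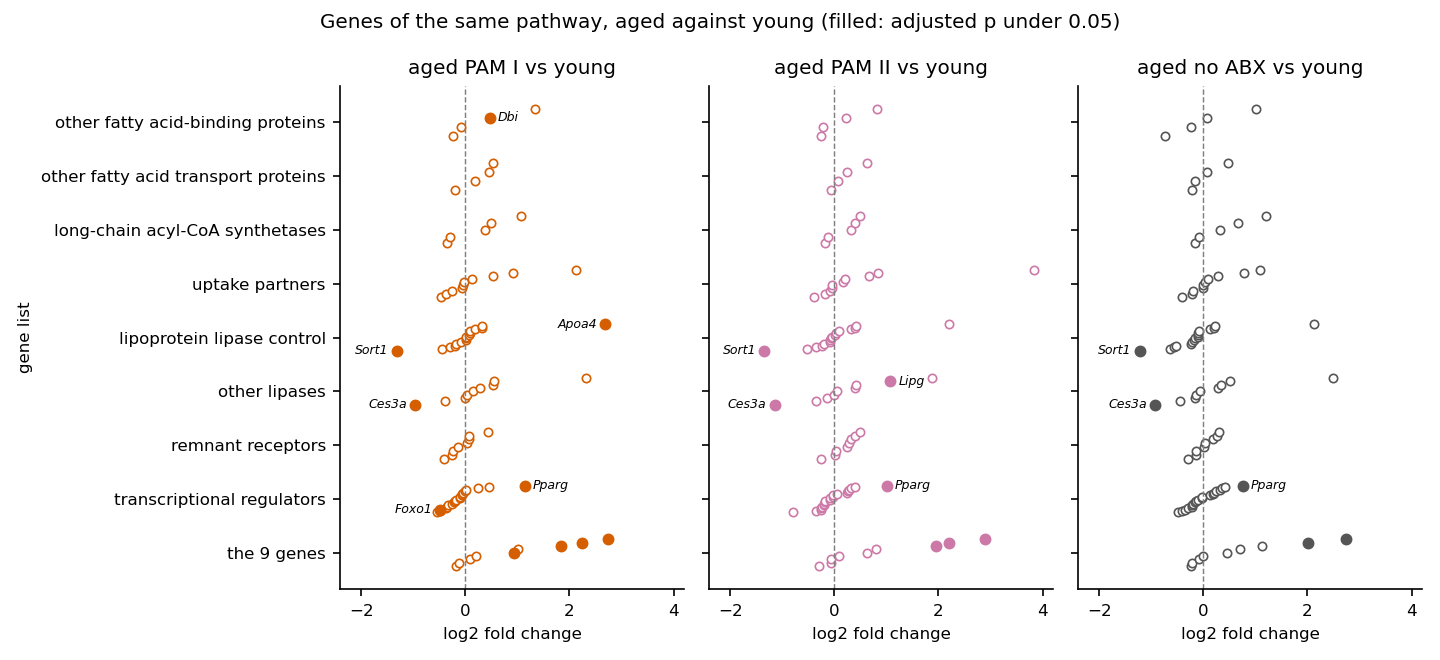
Log2 fold changes against young livers of 76 pathway genes, by list, and of the 9 genes in the bottom row, with filled points and names for genes with an adjusted p under 0.05. Pparg lies to the right and Sort1 and Ces3a to the left in all 3 aged groups, and most other genes lie near 0.

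The genes whose levels most resembled each member were found by Pearson's r of log2 CPM over the 16 libraries among 11073 protein-coding genes. For genes that differ between aged and young livers this r is carried largely by that difference, so the value over the 12 aged livers is given too. Among the nearest to Cd36 were Fermt1 (0.98, and 0.90 in aged livers) and Raet1d (0.96 and 0.61). Nearest to Vldlr were Cyp2b9 (0.96 and 0.82), Hhipl1 (0.95 and 0.76) and Slc22a27 (0.95 and 0.68). Fabp4 was nearest to Abracl (0.92 and 0.86), Lig1 (0.92 and 0.89) and Ube2c (0.92 and 0.84), and Lpl to Aldh18a1 (0.87 and 0.81), Grk3 (0.86 and 0.82) and Ifi204 (0.85 and 0.81). Fabp1 was nearest to Uqcr10 (0.92 and 0.90), Ndufs5 (0.92 and 0.88) and Ndufv2 (0.92 and 0.91), and Fabp2 to Pex11a (0.95 and 0.91), Gstm2 (0.94 and 0.94) and Fitm1 (0.94 and 0.96). Slc27a2 was nearest to Tax1bp1 (0.90 and 0.93), Acot12 (0.89 and 0.91) and Gphn (0.87 and 0.91). Slc27a4 was nearest to Urgcp (0.91 and 0.91), Pink1 (0.91 and 0.91) and Acads (0.90 and 0.89), and Lipc to Magix (0.92 and 0.94), Jmjd8 (0.91 and 0.93) and Pecr (0.91 and 0.93). Cyp2b9, Slc22a27 and Gstm2 belong to families of close paralogs, so their own values are uncertain.

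On GRCm38 (mm10), with gene positions from GENCODE M21, Cd36 (ENSMUSG00000002944) lies on chromosome 5 from 17781690 to 17888801 on the minus strand and Lpl (ENSMUSG00000015568) on chromosome 8 from 68880491 to 68907448 on the plus strand. Vldlr (ENSMUSG00000024924) lies on chromosome 19 from 27216484 to 27254231 and Fabp1 (ENSMUSG00000054422) on chromosome 6 from 71199827 to 71205023, both on the plus strand. Fabp2 (ENSMUSG00000023057) and Fabp4 (ENSMUSG00000062515) are both on chromosome 3, from 122895072 to 122899506 on the plus strand and from 10204088 to 10208576 on the minus strand. Slc27a2 (ENSMUSG00000027359) and Slc27a4 (ENSMUSG00000059316) are both on chromosome 2, from 126552407 to 126588243 and from 29802634 to 29817522 on the plus strand, and Lipc (ENSMUSG00000032207) is on chromosome 9 from 70798128 to 70952226 on the minus strand. All 9 are protein-coding, and counts cover their exons, untranslated ones included.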

How the data were processed

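Total RNA of snap-frozen liver portions from 16 mice was sequenced as paired 100-base reads. Each deposited file gives 1 library's raw counts of fragments per gene. Per the submitters' processing notes, the authors used Trimmomatic 0.38, HISAT2 2.1.0 with mm10 and featureCounts 1.5.0-p2, and, per the file headers, counted paired fragments over the exons of each gene of Ensembl release 99 (GRCm38) at strand setting 1. The library kit is not given in the sources used here, so the fit of that strand setting to it was not checked. Groups came from title, age and group fields, since a description field names the young livers as aged. Symbols and positions came from GENCODE M21 (55230 of 55471 identifiers), and promoter windows from RefSeq (GRCm38.p6).

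The tests used edgeR 4.0.16 in R 4.3.3: filterByExpr, TMM scaling and 1 robust quasi-likelihood fit of 16 libraries (biological coefficient of variation 27.3%). Tests were two-sided, with Benjamini-Hochberg adjustment over 17046 genes. Intervals are 95% intervals of the fit. Alternatives were RLE scaling, no filter, DESeq2 1.42.0, a fit of 2 groups alone, leaving out libraries, and muscle transcripts as a covariate or a reason to leave libraries out. The rule for the last took aged livers more than 1 above the aged no ABX mean of the list on the log2 scale. Young livers were kept whatever their level, although young replicates 1 and 4 stood 3.00 and 1.50 above that mean. Comparisons with young livers under this rule therefore set aged livers low in muscle transcripts beside some young livers high in them. Correlations used 100000 permutations, two-sided. The fitting code was tested on simulated data. No 2 libraries were copies (closest pair: Pearson r of 0.994 across genes). All 9 genes are named in every comparison, and of each pathway list up to 4 called genes by p, beside close relatives and PPAR-alpha chosen after their values were seen. For each of the 9 genes the 3 with the highest r are named, except 1 that is not reported here. The genes and lists were chosen with earlier results of these data known. The intervals hold the spread between livers and counting error together; depth per library is given with the results.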

Additional observations from a re-analysis of the deposited data

Results flagged for a closer look

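Of 36 groups of 4 livers (9 genes in 4 groups), 6 held a liver that stood apart from the other 3 by Dixon's 95% criterion. For independent, normally distributed values about 1 of 20 groups would meet it. It was applied here to unlogged CPM, and the 36 groups reuse the same 16 livers. The 6 therefore cannot be read as an excess over that rate. Fabp4 had 55.5 CPM in PAM II replicate 1, against 12.2 to 18.8 CPM in the other 3 PAM II livers. Lpl had 80.1 CPM in PAM I replicate 3, against 48.7 to 52.0 CPM in the others of that group. It had 58.8 CPM in young replicate 3, against 18.5 to 19.5 CPM in the other young livers. Fabp2 had 31.7 CPM in aged no ABX replicate 1, against 62.9 to 68.0 CPM in the others. Slc27a2 had 953 CPM in PAM I replicate 3, against 1110.3 to 1112 CPM in the others. In young replicate 4 it had 1409 CPM, against 1068 to 1124 CPM in the other young livers.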

How the results depend on the processing

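Of 792 values of the 9 genes under other settings, 719 kept their direction and their side of the threshold, 2 lost a call, 2 gained one and 69 changed sign, none of them a called value; the cause was not tested. Cd36 and Vldlr passed against young livers under every setting run, with log2 fold changes for Cd36 of 2.31 to 3.15 in PAM I livers, 2.50 to 3.31 in PAM II and 2.53 to 3.17 in aged no ABX. The 2 lost calls are Fabp2 in PAM I (0.89 with the aged livers high in muscle transcripts left out) and Fabp4 in PAM II (1.90 without young replicate 1), and the 2 gained are Fabp2 in PAM II (0.62 by DESeq2) and in aged no ABX (0.65 without its replicate 1).

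Genes called in PAM I against young livers numbered 896 without a filter and 2629 by DESeq2, and 544 to 1529 with 1 library left out (2075 with 2 left out, aged no ABX replicate 4 and young replicate 1), against 1401. In PAM II there were 1860 by DESeq2 and 373 to 925 with 1 left out, against 884. In aged no ABX there were 1343 by DESeq2, 198 with 2 groups alone, 290 with muscle transcripts as a covariate, 155 with the same 2 left out, and 199 to 573 with 1 left out, against 551. Without the muscle-high livers 10 genes were called in PAM I and 59 in PAM II against aged no ABX, and 12 in PAM II against PAM I, against 0 each. DESeq2 called 16 in PAM I against aged no ABX. Leaving out the muscle-high livers removes replicates 1 and 2 of PAM I and 2 to 4 of PAM II, and the lone PAM II liver is assumed to vary like the other groups.

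Signs changed only for values that had not passed. With muscle-high livers left out, log2 fold changes were -0.02 for Slc27a4 in PAM II against young livers; -0.43 for Cd36 and -0.53 for Vldlr in PAM I against aged no ABX; -0.24 for Cd36, -0.009 for Vldlr, -0.001 for Fabp1 and -0.20 for Fabp2 in PAM II against aged no ABX; and 0.57 for Lpl, 0.52 for Vldlr, -0.21 for Slc27a2 and -0.096 for Slc27a4 in PAM II against PAM I. With muscle transcripts as a covariate they were 0.08 for Slc27a2 in aged no ABX against young livers, -0.009 for Cd36 and -0.002 for Lipc in PAM I, and -0.02 for Vldlr and -0.024 for Fabp1 in PAM II, each against aged no ABX. Slc27a2 in aged no ABX against young livers had 0.003 by RLE and by DESeq2, 0.013 without a filter and 0.006 with 2 groups alone, and Cd36 in PAM I against aged no ABX had -0.009 by RLE and by DESeq2 and -0.014 with 2 groups alone.

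With 1 library left out, values against young livers ran from -0.077 to 0.122 for Slc27a2 and -0.217 to 0.047 for Slc27a4 in aged no ABX, from -0.017 to 0.169 for Slc27a4 in PAM I, and from -0.195 to 0.117 for Fabp1 and -0.132 to 0.048 for Slc27a2 in PAM II. In PAM I against aged no ABX they ran from -0.179 to 0.196 for Cd36, -0.237 to 0.381 for Vldlr and -0.121 to 0.154 for Lipc. In PAM II against aged no ABX they ran from -0.024 to 0.348 for Cd36, -0.437 to 0.591 for Lpl, -0.001 to 0.252 for Fabp1, -0.034 to 0.274 for Fabp2, -0.178 to 0.048 for Slc27a2 and -0.198 to 0.083 for Lipc. In PAM II against PAM I they ran from -0.057 to 0.290 for Cd36, -0.726 to 0.089 for Lpl, -0.203 to 0.415 for Vldlr, -0.621 to 0.348 for Fabp4, -0.063 to 0.087 for Slc27a4 and -0.224 to 0.052 for Lipc. No paired analysis was possible because the labels give no replicate numbers that tie mice of different groups. Vldlr rests on the fewest fragments, 47 to 101 in each young liver.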
